A study of Mus musculus with 8 samples.

Results

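Loss of Ptpn1 was examined in macrophages exposed to IL-10, by setting the knockout cells with IL-10 against the wild-type cells with IL-10 across every gene with enough signal. The cells were peritoneal macrophages drawn into the cavity by thioglycolate, an irritant, in C57BL/6 mice. One group carried the genotype Ptpn1-/- and the other was wild type, and both received IL-10 at 100 ng/ml for 4 h after 24 h of adherence to plastic. Untreated (Mock) cells of each genotype gave the background for the same contrast. The labels list 8 samples in 4 groups of 2, without saying whether the samples came from separate mice, and they give neither the ages of the mice nor the exons removed by the Ptpn1 allele. Of the 11996 genes listed, 11400 had a mean signal of at least 26.7 units over the 4 groups and make up the comparison, and 596 were left out.

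The table gives 1 value per gene and group, the authors' mean signal, so the spread between replicates is unknown and no difference has a p-value. Each group's signals sum to 26705598, so 26.7 units are 1 ppm of the total. The depth of each library is unknown. Where a pair of signals is given for cells with the same treatment, wild type comes first. Differences are log2 ratios of knockout over wild type with 26.7 units added to both signals, which understates the ratios of low genes. The median ratio of the 11400 genes was 0.01, with the percentiles 5 and 95 at -0.34 and 0.34. The 95th percentile of the size of the ratio was 0.61 for genes with a mean signal of 26.7 to 100 units, 0.35 from 1000 to 3000 units and 0.59 above 20000 units. Above 20000 units the 146 genes stand on few, widely spaced values, and 30 of them had the same value in both genotypes. All 9 macrophage markers passed the filter.

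PTP1B, the product of Ptpn1, is a tyrosine phosphatase anchored to the endoplasmic reticulum that acts on receptors and on the kinases JAK2 and TYK2. IL-10 binds a receptor of IL10RA and IL10RB chains, which activates JAK1 and TYK2 and, through them, the transcription factor STAT3, and in macrophages this represses inflammatory genes. Interferons act through related kinases, JAK1 with TYK2 or JAK2, and through STAT factors and IRF9, which bind interferon-stimulated response elements (ISRE) and gamma-activated sites (GAS) near the starts of antiviral genes.

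Under IL-10, interferon-inducible genes stood highest in the knockout relative to wild type. The knockout exceeded wild type by 2-fold or more in 68 genes (0.596% of the 11400), and wild type exceeded the knockout by as much in 9 (0.0789%). At a limit of 1.5-fold, 205 genes were higher (1.8%) and 113 lower (0.991%), while 51.8% of all genes had a ratio above 0. Among untreated cells the same contrast gave 37 genes past 2-fold upward (0.325%) and 12 downward (0.105%), with 53.5% of genes above 0. Of the 68 higher genes, 40 belonged to 12 lists of interferon-linked families, which had 144 kept members, and 14 belonged to none of the 46 gene lists. In 8 of the 68 the wild-type signal under IL-10 was itself below 26.7 units. In 7 of the 68 both wild-type signals were, so these 7 passed the filter through the knockout. The plot of ratio against signal shows where the interferon-linked and matrix genes lie among the rest.

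**Figure D1:**
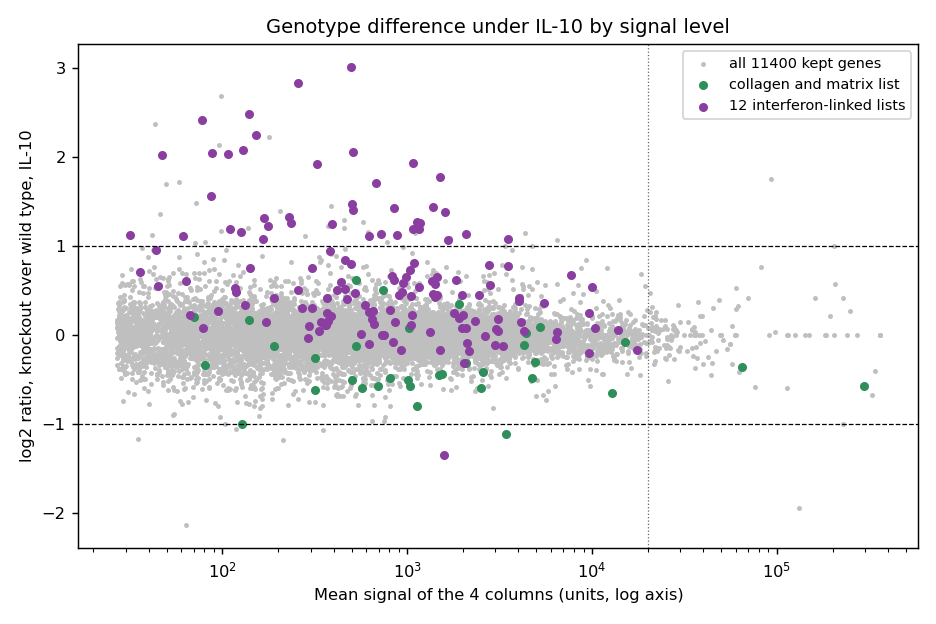
Each point is 1 of the 11400 kept genes, with its mean signal over the 4 groups on a log axis and its log2 ratio of knockout over wild type under IL-10. Dashed lines mark 2-fold and the dotted line 20000 units; interferon-linked genes (purple) make up 40 of the 68 genes above the upper line, and the collagen and matrix genes (green) lie mostly below 0.

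The targeted gene itself did not vanish from the knockout. Ptpn1 (ENSMUSG00000027540, mm9 chr2:167757872-167804885, plus strand) was listed at 4960.5 units in untreated wild type and 6736 with IL-10, against 3836.5 and 5391.5 in the knockout. The knockout thus stood lower under both treatments, with ratios of -0.32 under IL-10 and -0.37 untreated. The table has 1 value for the whole gene, so reads from exons that the allele may retain cannot be separated from the rest, and the value neither checks nor contradicts the genotype label. The 24 kept tyrosine phosphatases, Ptpn1 included, had a median of 0.02 under IL-10, with Dusp1, a phosphatase of MAP kinases, at 0.61 and Ptpn13 at -0.71 as the extremes. Ptpn2, the phosphatase closest in sequence to PTP1B, was at 701 and 914 units (0.37).

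Receptor chains and kinases upstream of the response differed little in signal. Il10ra was at 1865.5 units in wild type with IL-10 and 1803 in the knockout (-0.05), and Il10rb was at 7030 and 6861 (-0.03). Of the 6 kept IL-10 and interferon receptor chains none differed by 1.5-fold, and their median was -0.03. Jak1 (-0.10), Tyk2 (-0.11) and Jak2 (0.17) were also close to 0. Stat3, the main transducer of IL-10, was at 8651 and 8460 units in the same order (-0.03), having stood at 4330 and 3678 untreated. Factors that carry interferon signals stood higher in the knockout. Stat2 was at 951 and 1511 units (0.65 under IL-10 and 0.21 untreated), and Irf9, its partner, at 863 and 1371 (0.65 and 0.40). The JAK and STAT list as a whole had a median of 0.05 over 11 members.

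Interferon regulatory factors were led by Irf7, which amplifies type I interferon expression. Irf7 (mm9 chr7:148448605-148452320, minus strand) was at 625 units in untreated wild type, 718 in wild type with IL-10, 2124 in untreated knockout and 2517 in knockout with IL-10. Its ratios were thus 1.77 under IL-10 and 1.72 untreated, nearly the same. Irf1 was at 0.57, and the 9 factors had a median of 0.11. Batf2, an interferon-inducible partner of Irf1 outside the lists and picked out after its values were seen, was at 89 and 239 units under IL-10 (1.20).

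The Ifit genes, whose products bind viral RNA, and their companions held the largest ratios. Rtp4 (ENSMUSG00000033355, mm9 chr16:23610005-23614308, plus strand), an interferon-inducible chaperone of receptors, was at 113.5 units in untreated wild type, 135 in wild type with IL-10, 468 in untreated knockout and 1274 in knockout with IL-10. The knockout with IL-10 therefore stood far above the other 3 groups, with a ratio of 3.01 under IL-10 and 1.82 untreated. Ifit2 went through 70, 72.5, 210 and 675 units in the same order of groups (2.82 and 1.29). Ifit1 was at 42, 52, 171.5 and 345 units (2.24 and 1.53), and Ifit3 at 23.5, 32.5, 159 and 216 (2.04 and 1.89). In all of these the wild-type signals with and without IL-10 were close together and both knockout signals lay above them. Of the 23 kept genes of the list, 9 were at least 2-fold higher, all 23 were above 0 and the median was 0.67, against 0.53 untreated. Ifi27l2a (463.5 and 1842 units, 1.93), Xaf1 (153.5 and 404, 1.26), Cmpk2 (106 and 282, 1.22), Plac8 (14 and 62, 1.12) and D14Ertd668e (416.5 and 932, 1.11) were the others past 2-fold. Both wild-type signals of Plac8 were below the filter level, so it was kept through the knockout, which favours the count of 9. Ifitm3, which blocks entry of enveloped viruses, stood at 0.36.

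**Figure D2:**
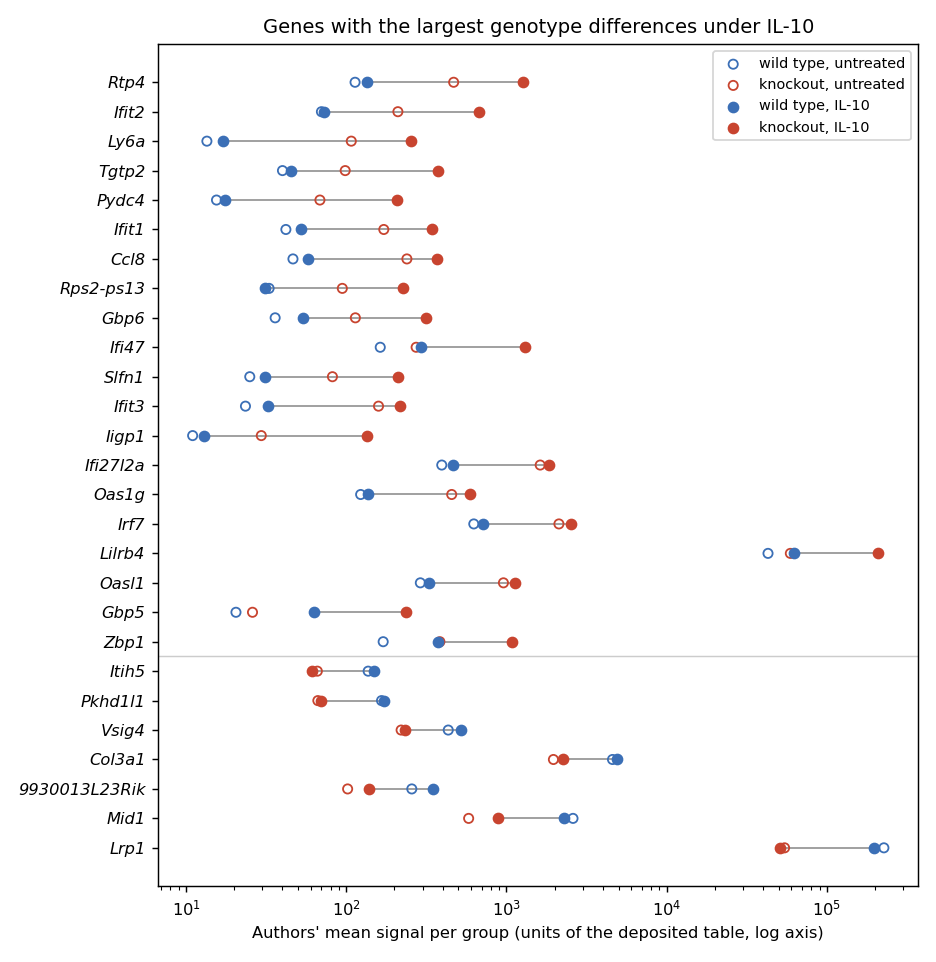
Authors' mean signal of each of the 4 groups on a log axis for the 20 genes with the largest upward and the 7 with the largest downward ratios at 5 ppm or more in the higher group. Filled points are cells with IL-10 and open points untreated cells, blue for wild type and red for knockout; grey lines join the IL-10 pair, from 135 to 1274 units for Rtp4.

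The Oas enzymes, which sense double-stranded RNA and activate RNase L, had 6 of 9 members at least 2-fold higher under IL-10 and a median of 1.27, against 0.88 untreated. Oas1g was at 137 and 591.5 units (1.92), Oasl1 at 328.5 and 1131 (1.70), Oas2 at 363 and 999.5 (1.40) and Oasl2 at 1029 and 2728 (1.38). Oas3 and Oas1a completed the 6 at 1.27 and 1.13. ISG15 is a ubiquitin-like modifier that is joined to proteins and removed again. Isg15 was at 102.5 and 295 units (1.32 under IL-10, 0.72 untreated) and Usp18, which takes ISG15 off and restrains the interferon receptor, at 83 and 205 (1.08 and 1.28). The 7 kept genes of that pathway had a median of 0.47.

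Effectors that act on viruses directly were also above 0 for the most part, 15 of 16, with a median of 0.53. Rsad2, which makes a chain-terminating nucleotide, was at 423 (wild type) and 1184.5 (knockout) units with IL-10 (1.43). Trex1, a DNA exonuclease, was at 540 and 1215.5 (1.13) and Mx1 at 30 and 95.5 (1.11). Sensors of nucleic acids were less uniform: 1 of 17 passed 2-fold, 9 were above 0 and the median was 0.16. The member past 2-fold was Zbp1, which binds nucleic acids in the Z form, at 170, 373, 384 and 1083 units in untreated wild type, wild type with IL-10, untreated knockout and knockout with IL-10 (1.47 under IL-10, 1.06 untreated). Its signal in the untreated knockout thus matched that of wild type with IL-10. Dhx58 (0.79), Ddx60 (0.75) and Ddx58 (0.61), of the RIG-I type, followed.

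Guanylate-binding proteins and immunity-related GTPases, interferon-inducible enzymes that attack vacuoles holding pathogens, were higher under IL-10 by more than they were untreated. Of the 6 kept guanylate-binding proteins, 5 were at least 2-fold higher under IL-10, and the list median was 1.22 under IL-10 and 0.41 untreated. Gbp5 was at 20.5 units in untreated wild type and 26 in untreated knockout, and at 63 and 237 with IL-10, so its ratio was 1.56 with and 0.16 without IL-10. Gbp3 was at 164 and 204 units untreated and at 346 and 854 with IL-10 (1.24 and 0.27). Gbp6 was at 54 and 314 with IL-10 (2.08 and 1.17), Gbp9 at 1.19 and Gbp2 at 1.18. The immunity-related GTPases had 4 of 9 members past 2-fold and a median of 0.94, against 0.50 untreated. Tgtp2 was at 40 and 98.5 units untreated and at 45 and 373 with IL-10 (2.48 and 0.91). Ifi47 was at 163 and 273 untreated and at 294 and 1299 with IL-10 (2.05 and 0.66), Iigp1 at 13 and 134 with IL-10 (2.02 and 0.58) and Irgm1 at 1366.5 and 2898 (1.07 and 0.53). In each of these the knockout with IL-10 was the highest of the 4 groups. The difference between the IL-10 and the untreated ratios has no replicate check. The units added to both signals also shrink ratios at low signals, such as the untreated ones of Gbp5 and Iigp1. Iigp1 was at 11 and 29.5 units untreated, so both of its wild-type signals were below the filter level. It was therefore kept through the knockout, which favours the count of 4.

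The PYHIN genes, which encode sensors and regulators bound to DNA, had 7 of 8 kept members at least 2-fold higher and a median of 1.17, against 0.64 untreated. Pydc4 was at 17.5 and 208 units (2.41), Mnda at 1022.5 and 2813.5 (1.44), Ifi203 at 897.5 and 2172.5 (1.25) and Ifi204 at 3047.5 and 6461 (1.08). Ifi205 differed in its untreated values, which were 86 and 88.5 units, while with IL-10 it was at 92 and 238.5 (1.16 under IL-10 and 0.03 untreated). Both wild-type signals of Pydc4, 15.5 untreated and 17.5 with IL-10, were below the filter level. Pydc4 was therefore kept through the knockout, which favours the count of 7. Among the Schlafen genes, which restrain growth and translation, Slfn1 (31 and 211.5 units, 2.05) and Slfn4 (130.5 and 366.5, 1.32) passed 2-fold out of 8, and the median was 0.40. The PARP list had none of its 13 members past 2-fold and a median of 0.15, led by Parp9 at 0.72. Among 19 TRIM ligases the median was 0.15, with Trim30b at 0.95 and Trim30a at 0.78 at the top. Of the 19, 5 were below 0, and the 1 member past 2-fold was Mid1, at -1.34. Near-identical copies are common in the Ifit, Oas, guanylate-binding, PYHIN and Schlafen families, and how reads were split among copies is not given in the sources used here.

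**Figure D3:**
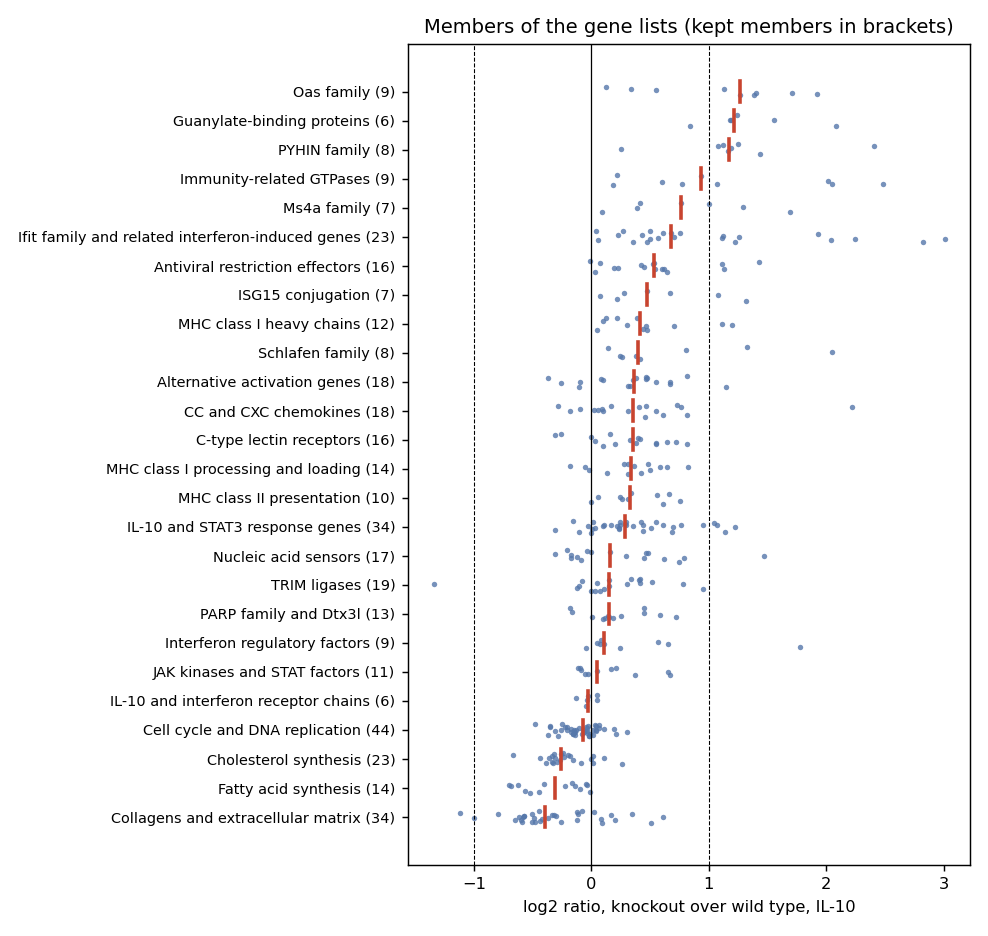
Each point is a kept member of the named gene list, placed at its log2 ratio of knockout over wild type under IL-10, and the red bar is the list median. Medians of the lists drawn, which leave out some such as the Ly6 family (1.72, and 1.06 with a pseudocount of 4 ppm), run from 1.27 for the Oas family to -0.39 for collagens and extracellular matrix; dashed lines mark 2-fold, and the median of all genes was 0.01.

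Genes past 2-fold lay in runs along the chromosomes. Joining neighbours less than 500 kb apart gave 12 runs that held 36 of the 68 genes, and the 68 genes lay on 18 chromosomes. The run with the most genes, at mm9 chr1:175522088-175961886, held 7 PYHIN genes among 8 kept. The run at chr5:121180343-121357534 held Oas2, Oas3, Oas1g and Oas1a among 6 kept genes, and the run at chr11:48679620-48910474 held Irgm1, Tgtp2 and Ifi47 among 6. Ly6e, Ly6a and Ly6c2 were the 3 kept genes of chr15:74785501-74942114. Ifit2, Ifit3 and Ifit1 were the 3 of chr19:34625200-34724499, and Gbp5, Gbp3 and Gbp2 stood among 4 kept genes at chr3:142159898-142300972. These runs follow gene families that lie together in the genome, and their members resemble each other in sequence.

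The sequences before the starts of these genes were searched for the letters of an ISRE, GAAANNGAA, and of a GAS, TTCNNNGAA, each on both strands and with overlaps between the motifs allowed. RefSeq promoter windows (GRCm38.p6, 250 bases before to 50 after the start) matched 50 of the 68 genes. ISRE letters stood in 22 of these 50 (44%), in 27 of 92 genes between 1.5-fold and 2-fold higher (29.3%), in 7 of 76 genes at least 1.5-fold lower (9.21%), in 8.62% of the 9088 kept genes with a window and in 9.76% of all 27025 genes of the promoter table. Requiring 1 more A after the motif gave 36% of the 50 genes against 3.77% of the kept genes. GAS letters stood in 5 of the 50 (10%) and in 8.2% of the kept genes. A match is a description of letters and not a bound site, and related genes share promoter sequence. Of the 20 genes with the largest ratios among those with at least 5 ppm in the higher group, 6 had ISRE letters and a window that can be shown. Their 250 bases before the start are printed here 5′ to 3′ along the gene, with the ISRE letters or their reverse complement in capitals, because they show how close to the start and how clustered the matches are.
Ifit1: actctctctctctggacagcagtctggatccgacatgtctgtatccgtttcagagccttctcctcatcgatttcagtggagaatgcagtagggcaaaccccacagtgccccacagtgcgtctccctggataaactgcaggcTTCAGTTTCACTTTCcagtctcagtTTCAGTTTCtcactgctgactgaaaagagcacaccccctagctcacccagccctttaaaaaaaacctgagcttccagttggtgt
Ifit3: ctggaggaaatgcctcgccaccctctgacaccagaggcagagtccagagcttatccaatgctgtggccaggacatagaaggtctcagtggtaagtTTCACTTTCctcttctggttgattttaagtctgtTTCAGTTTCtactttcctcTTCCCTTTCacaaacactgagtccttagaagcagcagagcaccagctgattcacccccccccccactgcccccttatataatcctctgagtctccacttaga
Oas1g: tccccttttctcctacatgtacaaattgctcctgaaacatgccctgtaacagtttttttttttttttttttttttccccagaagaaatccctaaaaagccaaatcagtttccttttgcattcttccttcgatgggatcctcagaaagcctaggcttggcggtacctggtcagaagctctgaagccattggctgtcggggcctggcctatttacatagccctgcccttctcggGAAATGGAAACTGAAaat
Tgtp2: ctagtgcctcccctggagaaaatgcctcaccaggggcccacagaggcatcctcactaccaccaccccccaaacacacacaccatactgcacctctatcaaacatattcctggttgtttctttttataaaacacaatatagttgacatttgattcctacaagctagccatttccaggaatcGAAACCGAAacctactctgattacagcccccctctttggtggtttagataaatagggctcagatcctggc
Pydc4: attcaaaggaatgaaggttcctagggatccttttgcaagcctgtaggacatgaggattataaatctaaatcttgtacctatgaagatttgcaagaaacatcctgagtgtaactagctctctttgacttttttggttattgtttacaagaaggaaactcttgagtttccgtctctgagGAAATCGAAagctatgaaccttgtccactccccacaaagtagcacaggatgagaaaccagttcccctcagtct
Gbp5: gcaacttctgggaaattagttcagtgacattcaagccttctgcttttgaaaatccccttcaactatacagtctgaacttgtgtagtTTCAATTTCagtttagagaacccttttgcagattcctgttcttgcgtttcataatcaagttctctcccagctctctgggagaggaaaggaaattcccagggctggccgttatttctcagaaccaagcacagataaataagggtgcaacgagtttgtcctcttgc
In GRCm38.p6 these lie at chr19:34640639-34640888 for Ifit1, chr19:34583279-34583528 for Ifit3 and chr3:142496684-142496933 for Gbp5, all on the plus strand. Those of the minus strand are chr5:120887614-120887863 for Oas1g, chr11:49064213-49064462 for Tgtp2 and chr1:173599273-173599522 for Pydc4. Ifit1 has 3 matches, the first bases of which lie between -109 and -84 from the start, and Ifit3 has 3 between -155 and -102. Oas1g has 2 overlapping matches at -18 and -12, where the single runs in Tgtp2, Pydc4 and Gbp5 begin at -70, -73 and -164. Tgtp2 and Gbp5 also carry GAS letters, Tgtp2 at -81 and Gbp5 at -245 and -52.

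**Figure D4:**
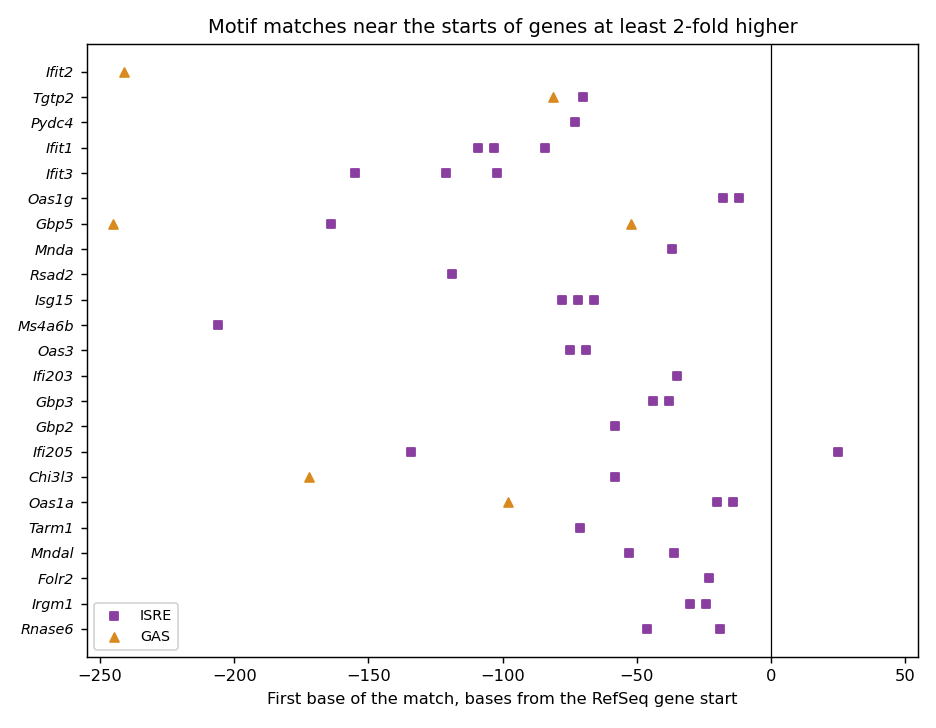
Positions of ISRE (squares) and GAS (triangles) letters around the RefSeq start of each gene at least 2-fold higher under IL-10 that has either, in bases, with genes in order of their ratio. ISRE letters occur in 22 of the 50 genes with a window, for example 3 between -109 and -84 in Ifit1.

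Genes that IL-10 and STAT3 are known to induce were above 0 in 29 of 34 kept cases, with a median of 0.29 under IL-10 and 0.12 untreated, and 4 passed 2-fold. Socs3, the feedback inhibitor made on STAT3 activation, was at 380.5 and 432 units untreated and at 3924.5 in wild type and 5021 in the knockout with IL-10 (0.35 under IL-10, 0.17 untreated). Il4ra, the IL-4 receptor chain, was at 2056.5 and 2126 units untreated and at 4637 and 7868.5 with IL-10 (0.76 under IL-10, 0.05 untreated). In both genes the ratio was thus smaller without IL-10 than with it. Those past 2-fold included Il21r (322 and 785 units, 1.22), Tnfsf14 (201.5 and 453.5, 1.07) and Tnip3 (680 and 1432.5, 1.05). Untreated, Il21r and Tnip3 were each already at 0.72, and Tnfsf14 was at 0.13. Tnfsf14, a ligand of the TNF family also called LIGHT, was at 5 and 8 units without IL-10. The units added to both signals hold a ratio at such levels near 0. Fgl2 was at 0.95, against 0.70 untreated, and Bcl3, which limits NF-kB target genes, at 1862 and 2537 units (0.44, against -0.04 untreated). Socs1 (56 and 107.5 units, 0.70) and Socs2 (118 and 204, 0.67) stood above Socs3 in ratio among the 8 SOCS genes, whose median was 0.21 (-0.04 with a filter at 5 ppm).

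Chemokines were headed by Ccl8, a ligand that draws monocytes, at 46.5, 58, 239 and 368 units in untreated wild type, wild type with IL-10, untreated knockout and knockout with IL-10 (2.22 under IL-10, 1.86 untreated). The other 17 kept chemokines lay below 2-fold, with Ccl5 at 0.81, Ccl4 at 0.76 and Cxcl13 at 0.73, and the list median was 0.36 (0.18 with a pseudocount of 4 ppm). Inflammatory cytokines did not differ in a single direction. Tnf was at 438 and 654.5 units with IL-10 (0.55, and 0.50 untreated), and Il1rn, which encodes the IL-1 receptor antagonist, at 11100 and 12886 (0.21). Il18bp, which neutralises IL-18, was at 290 and 586.5 (0.95), and Il1a at 633.5 and 487.5 (-0.36). The 15 inflammatory genes had a median of 0.23 and none past 2-fold.

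Antigen presentation genes were moderately higher. The 12 kept genes of the MHC class I heavy chain list, which also holds the light chain gene B2m (0.10), were all above 0 with a median of 0.41, with H2-Q7 (274 and 662 units, 1.20) and H2-Q6 (185 and 430.5, 1.11) past 2-fold. Tap1, which carries peptides into the endoplasmic reticulum, was at 1051 and 1874 (0.82). Cd74, the class II invariant chain, was at 6877 and 11592.5 (0.75), and the 10 class II genes had a median of 0.32, against 0.46 untreated. The Ms4a membrane genes had a higher median untreated (1.05) than under IL-10 (0.76). Ms4a4c (14 and 105 units, 1.69) and Ms4a6b (261 and 677, 1.29) passed 2-fold, and Ms4a7 (3337.5 and 6693) lay just outside at 0.998. All 3 kept Ly6 genes passed, out of a list of 11 of which only these 3 were in the table. Both wild-type signals of Ly6a and of Ly6c2 were below the filter level. Those genes were therefore kept through the knockout, which favours the count. With a filter at 5 ppm the list median went from 1.72 to 1.07, the value of Ly6e. Ly6a, the antigen Sca-1, was at 13.5 units in untreated wild type, 17 with IL-10, 107.5 in untreated knockout and 254 with IL-10 (2.68), Ly6c2 at 13.5 and 105.5 with IL-10 (1.72) and Ly6e at 4322 and 9101.5 (1.07). Lilrb4, an inhibitory receptor, was at 61912 and 207753 units (1.75, against 0.46 untreated) and is the only gene past 2-fold upward with a mean signal above 20000 units, where the values are widely spaced. Chi3l3, a chitinase-like marker of alternative activation, was at 728.5 and 1641 (1.14, and 1.33 untreated). Arg1, which breaks down arginine, was at 3187 and 5080.5 (0.67, and 0.90 untreated). Of the 18 kept genes of the alternative activation list, 1 passed 2-fold and 4 were below 0. The list median was 0.36 under IL-10 (0.20 with a pseudocount of 4 ppm) and 0.16 untreated.

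The untreated contrast puts these values in context. Of the 68 genes at least 2-fold higher under IL-10, 28 were at least 2-fold higher untreated, 28 were between 1.5-fold and 2-fold and 12 were below 1.5-fold. Over all 11400 genes, 0.325% were at least 2-fold higher untreated. The 12 included Iigp1, Lilrb4, Gbp5, Gbp3, Gbp9, Cmpk2, Irgm1, Ifi205 and Tnfsf14. Untreated, Iigp1 was at 11 and 29.5 units, Gbp5 at 20.5 and 26 and Tnfsf14 at 5 and 8. The units added to both signals shrink ratios at such levels, and Iigp1 is among the 12 only because of them. Small untreated ratios of such genes therefore do not show that their difference depended on IL-10. Lilrb4 (42852 and 59070.5 units untreated), Irgm1 (963.5 and 1404) and Gbp3 (164 and 204) stood higher and were less affected. Niacr1, a receptor for nicotinic acid, was at 11 and 10.5 units untreated and at 34 and 128.5 with IL-10 (1.35 and -0.02), and P2ry13, a receptor for ADP, was at 25.5 and 29 untreated and at 78.5 and 190.5 with IL-10 (1.05 and 0.09). These last 2 and Tarm1 (37 and 112 units with IL-10, 1.12) stood on no list and were named after their values were seen. The ratio was larger under IL-10 than untreated in 61 of the 68, a count that the choice of the 68 by their IL-10 ratio favours. The 2 contrasts share no group, but all 4 groups passed through the same normalization, and whether treated and untreated cells came from the same mice is not given in the labels.

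**Figure D5:**
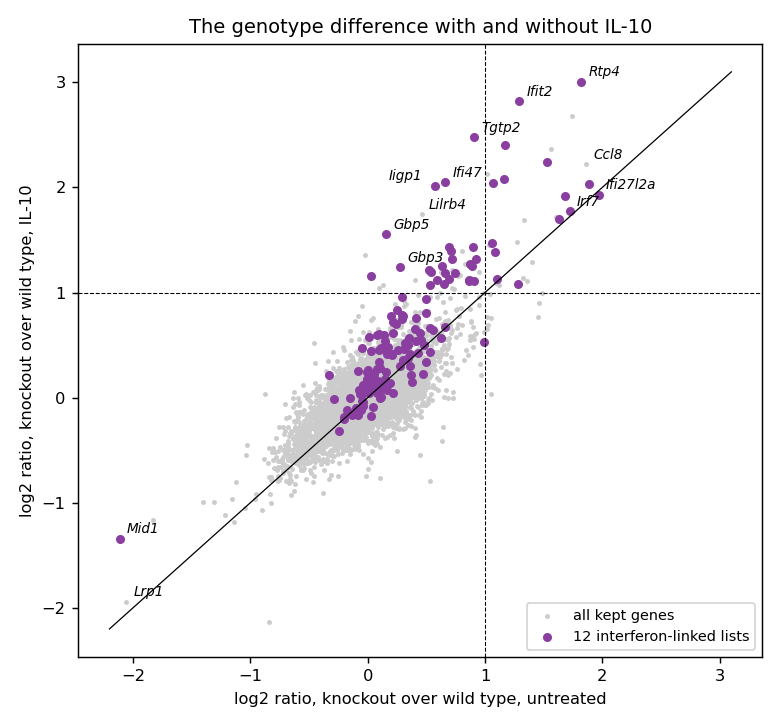
Each point is a kept gene, with the log2 ratio of knockout over wild type in untreated cells on the horizontal axis and under IL-10 on the vertical axis; the solid line marks equal ratios and dashed lines mark 2-fold. Gbp5 (0.16 untreated, 1.56 under IL-10) lies far above the line and Irf7 (1.72 and 1.77) on it.

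Genes lower in the knockout were fewer, and most were lower untreated as well. All 9 genes at least 2-fold lower under IL-10 were also below 0 untreated, and 6 of them by at least 2-fold. Of the 113 at least 1.5-fold lower, 109 were below 0 and 66 at least 1.5-fold lower untreated. Over all 11400 genes, 53.5% were above 0 untreated and 0.105% were at least 2-fold lower. The share of all genes at least 1.5-fold lower untreated was not counted. Mid1, an X-linked ubiquitin ligase bound to microtubules (mm9 chrX:166413191-166421906), was at 2600 and 580.5 units untreated and at 2290 and 887 with IL-10 (-1.34 under IL-10, -2.11 untreated). Lrp1, an endocytic receptor, was at 196010 and 50969 units (-1.94, and -2.06 untreated), in the range above 20000 units, and its row spans only chr10:126983451-126986973. Vsig4, a complement receptor of resident macrophages that inhibits T cells, was at 517.5 and 232.5 (-1.07). Pkhd1l1 (173 and 69.5 units, -1.05), 9930013L23Rik (349.5 and 139.5, -1.18) and Itih5 (150 and 61.5, -1.002) complete those at 5 ppm or more besides Col3a1.

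Collagen and matrix genes stood lower in the knockout under both treatments. Of 34 kept members, 26 were below 0, 7 were at least 1.5-fold lower, and the median was -0.39 under IL-10 and -0.33 untreated. Col3a1, a fibrillar collagen, was at 4587 and 1962.5 units untreated and at 4922.5 and 2260.5 with IL-10 (-1.11). Col6a5 (192 and 83 units, -0.995) lay just outside 2-fold, and Fbn1, Col1a2 and Dcn were at -0.80, -0.65 and -0.60. Mmp13, a collagenase, was above 0 at 0.61. The markers of mesothelial cells and fibroblasts, which line the cavity, moved with these genes. Their summed signal was 39506.5 units in untreated wild type and 38185 with IL-10, against 25003.5 and 24957.5 in the knockout, with a median ratio of -0.58 over 13 kept markers. Of these markers 11 were below 0, 1 was above 0 (Thy1, 0.07) and 1 was at 0 (Msln). Col1a1, Col1a2, Col3a1, Dcn and Sparc stand on both lists. Among the markers that do not, Wt1, a mesothelial transcription factor, was at 495 and 341.5 units with IL-10, Upk3b at 431.5 and 280 and the keratin gene Krt19 at 81 and 31.5. The part of such cells in the collagen values was not tested. In bulk RNA, fewer cells of a type and less RNA per cell cannot be told apart.

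Enzymes of fatty acid and cholesterol synthesis also stood lower. All 14 fatty acid genes were below 0, with a median of -0.31 under both treatments, and 3 were at least 1.5-fold lower. Scd2, a desaturase, was at 884 and 533.5 units (-0.70), Elovl6 at 162 and 90.5 (-0.69), Scd1 at 329.5 and 204.5 (-0.62) and Fasn, the fatty acid synthase, at 1150.5 and 770 (-0.56). Cholesterol synthesis had 4 of 23 members above 0 and a median of -0.26, with Stard4, a sterol carrier, at 506 and 366 (-0.44). The letters of a sterol response element, TCACNCCAC, stood in 0 of 16 of these promoters and in 1.35% of those of kept genes. At a share that low, 16 promoters are too few to tell whether they differ from the kept genes. Mgll, which breaks down monoacylglycerols, was at 875 and 436 units (-0.96, and -1.16 untreated). Complement genes were split, with C1s (894.5 and 445.5, -0.96) and C3 (6059.5 and 3770, -0.68) lower and Cfb (309.5 and 631, 0.97) and C2 (67 and 141, 0.84) higher in the knockout.

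Markers of other cell types were read beside these results. The macrophage markers themselves summed to 561200 and 469170 units with IL-10, with a median ratio of -0.05. A large part of that sum is Lyz2, with a mean signal of 227284 units over the 4 groups, where values are widely spaced. Lyz2 (-0.995) was the 1 marker of 9 at least 1.5-fold lower, and 4 markers were above 0 and 5 below. The lower sum is therefore no measure of the macrophage markers as a set. Monocyte markers summed to 2471.5 and 3716 units with IL-10, wild type first (1742 and 2877.5 untreated). Of the 7 markers, 5 were above 0, while F13a1 (-0.33) and Vcan (-0.26) were below. The 3 at least 2-fold higher were Ly6c2, Chi3l3 and Plac8, all of which are also on the gene lists above. Both wild-type signals of Ly6c2 and of Plac8 were below the filter level, so these genes were kept through the knockout. The median ratio of the 7 markers was 0.62 under IL-10 (0.18 with a filter at 5 ppm) and 0.61 untreated. Mast cell markers summed to 317.5 and 491.5 units and B cell markers to 446.5 and 276. None of the 9 markers of natural killer cells was listed in the table, and markers of plasmacytoid dendritic cells included Bst2 (0.65), itself interferon-inducible. Among resident peritoneal macrophage markers Gata6 was at 628 and 388 units (-0.66) and Cxcl13 at 1046.5 and 1749 (0.73). The part of any of these in the interferon-linked values was not tested.

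Other pathways lay near the median of all genes. The 44 cell cycle genes had a median of -0.07 and none past 1.5-fold. Medians were 0.01 for the 20 glycolysis and hypoxia genes, 0.00 for the 28 lysosome genes, 0.06 for the 29 oxidative phosphorylation genes and 0.05 for the 17 endoplasmic reticulum stress genes. Of the lysosome genes, 7 had the same value in both genotypes and the median fell among them. The extremes of that list were Ctsz at 0.77 and Atp6v0d2 at -0.68. Egln3, on the glycolysis and hypoxia list, was at -0.60. The 2-fold limit fell between P2ry13 and Rnase6 (1.05 and 1.04) just inside and Ms4a7 (0.998) and Lgals3 (0.995) just outside, and for lower genes between Itih5 (-1.002) and Col6a5 (-0.995). The filter fell between Ptprk and Spata24, each with a mean of 26.75 units, and Pkp2 and Lrp3, each at 26.625.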

How the data were processed

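RNA of thioglycolate-elicited peritoneal macrophages was sequenced by the standard Illumina protocol after TRIzol extraction, per the labels' protocols. The deposited table holds 1 normalized signal per gene and group. The submitters' processing notes name RSEM, Bowtie and mm9 without versions; their roles, the normalization, the strandedness and the annotation are not stated there. Although the table is titled as CPM, each column sums to 26705598 and the highest value, 362618, occurs in every column, so the values were treated as signal. With equal totals and shared top values, a difference in depth or a shift common to most genes cannot be seen, and the most abundant genes are capped. Depth is unknown, and no interval or floor is given.

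The limma and permutation tests planned need values per sample and were not run. Instead, Python 3.11.15 with pandas 2.3.3 and numpy 2.4.6 computed log2 ratios with 26.7 units (1 ppm of the column total) added, over genes with a mean of at least 26.7, and a 2-fold limit took the place of a test threshold. The computation was tested with changes planted into the wild-type IL-10 signals and with motifs planted into random sequences. Only genes well above the filter level were used, so low signals were not covered. The genes, the 46 gene lists, the 14 marker lists and the rule for named genes were chosen with earlier results of these data known. Named were Ptpn1, Il10ra, Stat3, Socs3, Irf7, Il4ra, Tnf and Il1rn, the 20 largest upward and up to 12 downward differences past 2-fold with at least 133.5 units in the higher group, members of lists past 2-fold with up to 4 further members, and the genes nearest each limit. Genes named outside this rule, including single marker genes, were chosen after their values were seen, and a few items are not reported here. Of rows with the same name, the highest in mean signal was used in lists. Coordinates of genes are those deposited and may span single transcripts; promoter coordinates are RefSeq's on GRCm38.p6, and the builds were not mixed. Transcript lengths came from GENCODE M21. Alternatives were other pseudocounts and filters, leaving out genes above 20000 units, subtracting a trend with length, and centring on the median.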

Additional observations from a re-analysis of the deposited data

How the results depend on the processing

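The count of genes at least 2-fold higher was 68, and 83 with a pseudocount of 0.25 ppm, 46 with 4 ppm, 47 with a filter at 5 ppm, 67 without genes above 20000 units and 63 with the length trend subtracted. The 9 genes at least 2-fold lower became 19 with 0.25 ppm, 3 with 4 ppm and 5 with the filter at 5 ppm; a larger pseudocount shrinks the ratios of low genes by construction, and a higher filter lists fewer genes. Of 27 named genes past 2-fold, 23 stayed past it in every alternative that listed them and none reversed. The exceptions with 4 ppm were 9930013L23Rik (-0.89), Vsig4 (-0.88), Pkhd1l1 (-0.67) and Itih5 (-0.61), the last 2 also with the length trend subtracted (-0.91 and -0.89). The medians of 9 of 55 lists changed sign in some alternative, among which only the SOCS list had a main median of at least 0.2 (0.21, and -0.04 with the filter at 5 ppm). The monocyte marker median went from 0.62 to 0.18 with that filter. Medians of 18 lists moved by at least 0.1 in some alternative, 11 with 4 ppm and 8 with the filter at 5 ppm. With 4 ppm the Ifit list went from 0.67 to 0.48, the guanylate-binding proteins from 1.22 to 1.05 and the immunity-related GTPases from 0.94 to 0.80. The share of genes with ISRE letters was 44%, 36% with 1 more A, and 40% of promoter windows in place of genes, the last alternative chosen after seeing the data. No paired analysis was possible because the deposited columns carry no replicate number, and for the same reason no replicate could be left out.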

Other observations

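Among the 14 genes at least 2-fold higher under IL-10 that stood on no gene list, all chosen after their values were seen, several encode myeloid receptors and enzymes. Irg1, which makes itaconate, was at 257.5 and 478 units in untreated wild type and knockout and at 447 and 1114.5 with IL-10 (1.27). Kdr, a receptor for VEGF that is also on the endothelial marker list, was at 504 and 1156 with IL-10 (1.16), and Folr2, a folate receptor of macrophages, at 1128.5 and 2429 (1.09 with and without IL-10). Vwf, the other kept endothelial marker, went the other way, at -0.62 under IL-10 and -0.51 untreated. The part of endothelial cells in the value of Kdr was not tested. Ltb4r1, a receptor for leukotriene B4, was at 74 and 199 (1.16), Rnase6 at 40 and 110 (1.04), and Retnlg at 26.5 and 121.5 (1.48 under IL-10, 1.28 untreated). Retnlg is also on the neutrophil marker list, whose 4 kept members were all above 0 with a median of 0.16 and summed to 3424 and 3786.5 units with IL-10; their part in its value was not tested. AA467197 and AW112010, which have no family name, were at 1.45 and 1.39. Rps2-ps13, annotated as a pseudogene, was at 31 and 226 units (2.13), and its reads could come from similar genes.

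Zhx2 was at 108.5 (untreated) and 95 (IL-10) units in wild-type cells and at 49 and 1 in knockout cells (-2.14 under IL-10), while an unnamed row that overlaps it on the same strand, ENSMUSG00000093496, was at 1 and 1 and at 55 and 116 (2.37). Both rows together gave 109.5 and 96 units for the wild type, then 104 and 117 for the knockout. Both are counted among the genes past 2-fold. Close to Ptpn1 on its chromosome, of 30 kept genes within 2 Mb, Sulf2 (3325 and 1873 units, -0.82) and 5031425F14Rik (40 and 3, -1.17) were at least 1.5-fold lower and none was higher. The median size of the ratio was 0.22 among those 30, 0.11 among the 104 within 10 Mb and 0.11 over all genes.

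Lyz2 and Lgals3 exchanged values: with IL-10, Lyz2 was at 272813 and 136852 units (-0.995), and Lgals3 at 136852 and 272813 (0.995). Across 11222 genes with a known transcript length, Spearman's rho between length and the ratio was -0.40, as a description over genes of the same 2 columns. The median ratio was 0.12 in the shortest of 20 bins, where the median length was 901.5 bases, and -0.14 in the longest, at 9959.5. The 67 genes at least 2-fold higher with a length had a median of 2499 bases, against 3461 for all. The 4 kept Y-linked genes had ratios between -0.16 and 0.05.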
